A study of Ostreococcus tauri with 30 samples.

Results

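The genes of carbon fixation and of the pathways that surround it were followed in Ostreococcus tauri RCC745, a marine green picoalga, through 5 KEGG modules. A KEGG module is a named set of enzyme families with a shared pathway, and the deposited module table gives the reads that fell to each set. Sought were 9 modules, namely the Calvin cycle as a whole and in sections, the C4 and CAM (Crassulacean acid metabolism) modules and photorespiration. Of these 9, 5 were among the 236 modules of the table, and all 5 were kept. They were the Calvin cycle (M00165), the C4 cycles of the NAD-malic enzyme type (M00171) and the NADP-malic enzyme type (M00172), the light phase of CAM (M00169) and photorespiration (M00532). Liquid cultures were sampled at 1, 4 and 12 h after a higher addition of copper, at the same times after a lower addition, and as controls at 0, 1, 4 and 12 h, with 3 libraries in each of the 10 groups. All groups shared the strain, seawater medium with Keller nutrients and vitamins, aerated flasks and a cycle of 12 h light and 12 h dark. The sample labels give the additions as 250 and 25 µM copper, whereas the treatment protocol gives 2 and 0.4 µM, so no dose is attached to an effect. Nothing in the labels says that the 3 libraries of a group came from separate cultures, and p-values then measure only the spread between these libraries, which may be technical.

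The Calvin cycle fixes CO2 with the enzyme Rubisco and rebuilds the sugar phosphate that accepts the CO2. Rubisco also reacts with oxygen, and photorespiration salvages the phosphoglycolate that this side reaction makes, by way of glycolate, glycine, serine and glycerate. In plants, C4 cycles carry CO2 on malate or aspartate to the place of Rubisco and release it there with a malic enzyme, and the light phase of CAM decarboxylates stored malate and turns the pyruvate into phosphoenolpyruvate. A module name does not show that the pathway runs in the alga, since the same families, such as malic enzymes and aminotransferases, also serve other pathways. A family may belong to several modules, so that modules may share reads and are not taken as independent. The sources used here do not say whether such reads were counted in each module. Module counts came from a homology search against KEGG, per the series' design text, and a change in a module cannot be assigned to 1 enzyme here.

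Module counts summed to 27534827 to 62565779 per library, against 2549094 to 5232257 counts over all genes. The module total was 9.89 to 12.2 times the gene total in 28 libraries, but 6.06 times in control 1 h replicate 3 and 20.1 times in control 4 h replicate 3. With these 2 columns exchanged between the tables the ratios were 11.03 and 11.01. The labels of this pair are therefore in doubt in 1 of the tables. Each member's result that loses its call when they are exchanged or left out is given both ways. For other modules named as called, the loss of the call is stated. Scaling the modules by the gene table carries the mismatch into these controls. It moved the median of all modules by 0.17 at 1 h and -0.32 at 4 h of higher copper. Under this scaling edgeR called 0 members at 1, 4 or 12 h of higher copper, with standard errors of 0.19. Of all 236 modules it called 0, 10 and 3 at these times. Photorespiration then stood at 0.70, 0.35 and 0.41 at 1, 4 and 12 h, the CAM module at -0.14, -0.62 and -0.39, and the NAD-malic enzyme module at 0.19 at 4 h. With both controls left out as well, the same scaling gave 1, 3 and 2 called members, beside 3, 17 and 28 of all 236 modules. Levels below are CPM, a module's count relative to the library's total of module counts after TMM scaling, and ± after a level is the SD over 3 libraries. Differences are on the log2 scale, and ± after a difference is the standard error of edgeR's quasi-likelihood fit over all 30 libraries. A module was called at an adjusted p under 0.05 over the 236 modules of a comparison. Whether the libraries of compared groups overlapped is description and not a test, and it was not counted over all 236 modules. Numbers of families and their lengths are not given here, so a level of 1 module is not set against that of another.

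Photorespiration was higher after the higher addition at every time, and was the module with the smallest p of all 236 at 1 and 4 h. At 4 h its libraries held 41699.8, 43920.3 and 46314 CPM at higher copper, against 26198, 25475 and 30416 CPM in controls. Every library at higher copper lay above every control. The module rose by 0.68 ± 0.10, a 1.61-fold difference (edgeR adjusted p = 9.73e-05). At 1 h the libraries held 23804, 31484 and 30619.5 CPM at higher copper and 19554, 18559.9 and 21531 CPM in controls. The groups did not overlap, but replicate 1 at higher copper lay much nearer to the controls than the other replicates. The difference was 0.53 ± 0.10, or 1.44-fold (edgeR adjusted p = 0.00452). At 12 h higher copper held 41415, 41019 and 43899 CPM and controls 29293, 32575 and 29863 CPM, again without overlap. Photorespiration rose by 0.46 ± 0.10, or 1.38-fold (edgeR adjusted p = 0.00337). The 1 h call was lost on leaving out replicate 1 or replicate 2 of the 1 h controls, or replicate 2 of higher copper at 1 h (edgeR adjusted p = 0.0670, 0.0503 and 0.0873). It was also lost with the doubted labels exchanged (0.33, edgeR adjusted p = 0.234) and when only the groups compared were fitted (0.50, edgeR adjusted p = 0.244), whereas the 4 and 12 h calls held with each of the 30 libraries left out in turn.

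**Figure D1:**
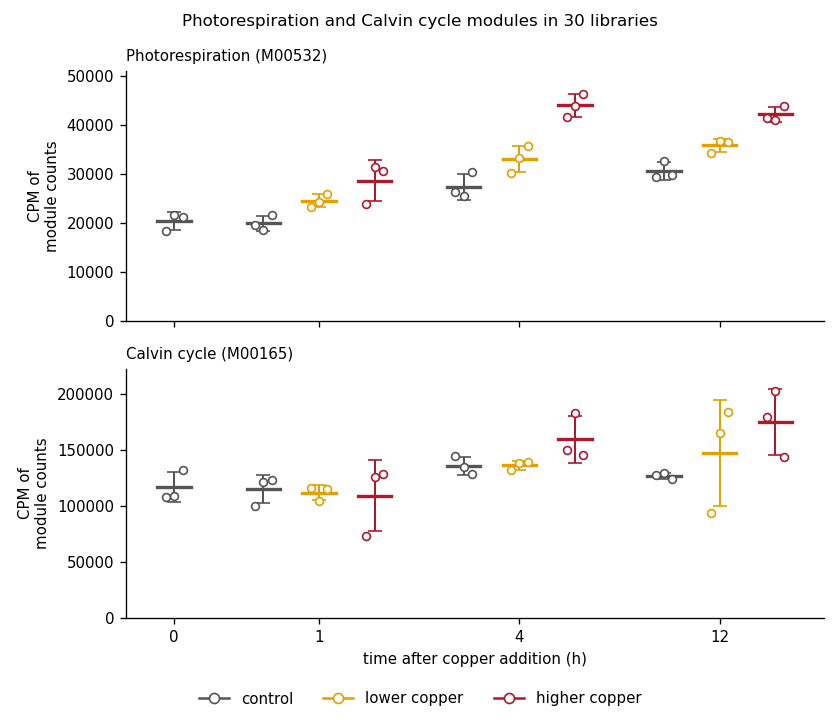
CPM of module counts (linear axis from 0) against time after copper addition, for photorespiration above and the Calvin cycle below; open circles are single libraries, thick bars are means and whiskers are the SD over 3 libraries. Photorespiration reached 43978 CPM on average at higher copper at 4 h, against 27363 CPM in the 4 h controls, while Calvin cycle libraries scattered most at higher copper 1 h and lower copper 12 h.

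After the lower addition photorespiration lay between the controls and the higher addition at each time, and none of these differences from controls was called. Lower copper held 23279, 24308 and 25896 CPM at 1 h, 30269, 33262 and 35587 CPM at 4 h, and 34311, 36692 and 36443 CPM at 12 h. The libraries stood clear of the controls of the same time at 1 and 12 h and overlapped with them at 4 h. The differences from controls were 0.30 ± 0.10 at 1 h, 0.27 ± 0.10 at 4 h and 0.23 ± 0.10 at 12 h (edgeR adjusted p = 0.289, 0.325 and 0.467, with unadjusted p = 0.00554, 0.0110 and 0.0297). Higher against lower copper was tested directly. Photorespiration was higher at 4 h by 0.41 ± 0.10 (edgeR adjusted p = 0.0405). That call was lost without the doubted pair of controls (0.43, edgeR adjusted p = 0.0718), with their labels exchanged (0.41, edgeR adjusted p = 0.132) and on leaving out any 1 of 21 of the 30 libraries, which are named with the NAD-malic enzyme module. The difference was 0.23 ± 0.10 at 1 h and 0.23 ± 0.10 at 12 h, and neither passed (edgeR adjusted p = 0.844 and 0.210).

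Photorespiration also rose with time without added copper. Controls at 0 h held 18346, 21564 and 21199.5 CPM, below every control at 4 h and at 12 h. The rise was 0.43 ± 0.10 at 4 h and 0.59 ± 0.10 at 12 h (edgeR adjusted p = 0.0145 and 0.000514), and at 1 h the difference from 0 h was -0.04 ± 0.10 (edgeR adjusted p = 0.943). Control 4 h replicate 3, of the doubted pair, was the highest of the 4 h controls. The 4 h call was lost with the doubted labels exchanged (0.26, edgeR adjusted p = 0.545), with both left out (0.32, edgeR adjusted p = 0.190), with library totals alone (0.33, edgeR adjusted p = 0.0570) and when only the groups compared were fitted (0.39, edgeR adjusted p = 0.0507). Leaving out 1 library also ended it, namely replicate 1 or replicate 3 of the 0 h controls, replicate 1 of the 1 h controls, replicate 3 of the 4 h controls, or replicate 2 of lower copper at 4 h (edgeR adjusted p = 0.113, 0.0638, 0.0501, 0.187 and 0.0530). The 12 h call held without any single library but was lost with gene table scaling (0.66, edgeR adjusted p = 0.105).

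Ordered by mean level, photorespiration was lowest in controls at 1 h (19882 ± 1512 CPM) and at 0 h (20369.9 ± 1762 CPM), which overlapped. Lower copper at 1 h followed with 24494 ± 1318 CPM, then controls at 4 h (27363 ± 2668 CPM) and higher copper at 1 h (28636 ± 4207 CPM). Controls at 12 h held 30577 ± 1753 CPM, lower copper at 4 h 33039 ± 2666 CPM and lower copper at 12 h 35815 ± 1308 CPM. Higher copper at 12 h (42111 ± 1561 CPM) and at 4 h (43978 ± 2307 CPM) stood at the top and overlapped with each other. From the third place up to lower copper at 12 h neighbouring groups overlapped, whereas lower copper at 1 h lay clear of the group below it and higher copper at 12 h of lower copper at 12 h. The highest group mean was 2.21 times the lowest.

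The Calvin cycle was the module with the most counts in the table and did not pass the test in any copper comparison. It took 13.4% of all module counts, from 7.77% in the lowest library to 18.8% in the highest, and in 27 of 30 libraries its count alone exceeded the count over all genes. The gene table holds 0 of the 94 plastid genes in the RefSeq annotation of O. tauri, among which is rbcL, the gene of the large subunit of Rubisco. The sources used here do not say whether plastid reads entered the module counts. At 12 h the Calvin cycle held 179151, 202376 and 144184 CPM at higher copper, and 127948, 129350 and 123902 CPM in controls. All 3 libraries at higher copper lay above the controls, with a wide spread. The difference was 0.46 ± 0.19, with a 95% interval of 0.07 to 0.86 (edgeR adjusted p = 0.0990, unadjusted p = 0.0238). It was called when only the groups compared were fitted (0.47, edgeR adjusted p = 0.0461) and on leaving out replicate 1 of lower copper at 12 h, a library outside the comparison that enters the shared spread (0.48, edgeR adjusted p = 0.0426).

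At 4 h the Calvin cycle stood at 149874, 183279 and 145182 CPM at higher copper and 144475, 134706 and 128484 CPM in controls. The groups did not overlap, yet the gap between their nearest libraries was small. The difference was 0.23 ± 0.19, with an interval of -0.17 to 0.63 (edgeR adjusted p = 0.541). At 1 h the values were 73263, 126260.0 and 128674 CPM at higher copper, against 100398, 121907 and 123084 CPM in controls. Replicate 1 at higher copper lay below every other library of the series, and the difference was -0.07 ± 0.19 with an interval of -0.47 to 0.32 (edgeR adjusted p = 0.902). Lower copper held 116298, 104231 and 114973 CPM at 1 h, 131969, 138256 and 139025 CPM at 4 h, and 94154, 165011 and 183908 CPM at 12 h. It overlapped with controls at every time, with differences of -0.04 ± 0.19, 0.01 ± 0.19 and 0.22 ± 0.19 (edgeR adjusted p = 0.962, 0.998 and 0.986).

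Higher copper against lower copper gave -0.03 ± 0.19, 0.23 ± 0.19 and 0.25 ± 0.19 for the Calvin cycle at 1, 4 and 12 h, none of them called (edgeR adjusted p = 0.988, 0.526 and 0.502). Controls at 0 h held 108513, 109352 and 132116 CPM. Later controls overlapped with them, and the differences of 0.22 ± 0.19 at 4 h and 0.12 ± 0.19 at 12 h did not pass (edgeR adjusted p = 0.839 and 0.705). Libraries of 1 group disagreed more for this module than for photorespiration in 7 of the 10 groups, and less in controls at 4 and 12 h and in lower copper at 4 h. The SD was 2.23% to 32.0% of the group mean for the Calvin cycle and 3.65% to 14.7% for photorespiration. The SD was largest in lower copper at 12 h and next in higher copper at 1 h, where replicate 1 lay far below the others. These 2 libraries also had the lowest ratios of module to gene counts outside the doubted pair, 9.89 and 9.90. The Calvin cycle's own count is part of the module total, so a low Calvin cycle count also lowers that ratio. The ratio is therefore not a separate sign, and its part in the result was not tested.

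The C4 cycle of the NAD-malic enzyme type also rose at 4 h of higher copper. This scheme moves carbon as aspartate and releases CO2 with NAD-malic enzyme. At 4 h its libraries held 5469, 5289 and 5682 CPM at higher copper, against 4030.3, 3613 and 4000.5 CPM in controls. Every library at higher copper lay well above the highest control. The module rose by 0.50 ± 0.10, or 1.41-fold (edgeR adjusted p = 0.00121), and the call held without any single library. At 12 h it held 4635, 4573 and 5137 CPM at higher copper and 4000.5, 4327 and 3568 CPM in controls, without overlap, but the difference of 0.27 ± 0.10 did not pass (edgeR adjusted p = 0.0570). This 12 h difference passed with DESeq2 size factors (0.28, edgeR adjusted p = 0.0452) and with DESeq2 as the test (0.28, DESeq2 adjusted p = 0.0268). It also passed on leaving out replicate 1 or replicate 3 of lower copper at 12 h, replicate 1 of higher copper at 1 h, or replicate 2 of the 12 h controls (edgeR adjusted p = 0.0441, 0.0486, 0.0185 and 0.0416).

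At 1 h the NAD-malic enzyme module held 3188, 4242 and 4259 CPM at higher copper and 3310.1, 3492 and 3488 CPM in controls. Replicate 1 at higher copper was again the lowest, below all controls, while the other replicates were above them. The difference was 0.18 ± 0.10 (edgeR adjusted p = 0.392), and without replicate 1 it was 0.32 (edgeR adjusted p = 0.0490). Lower copper held 3562, 3773 and 3575 CPM at 1 h, 4059.9, 4011 and 4349.5 CPM at 4 h, and 3610.2, 4132 and 4427 CPM at 12 h. These lay just clear of the controls at 1 h and overlapped with them at 4 and 12 h, although at 4 h 2 of the 3 libraries lay above every control, with differences of 0.08 ± 0.10, 0.09 ± 0.10 and 0.03 ± 0.10 (edgeR adjusted p = 0.854, 0.855 and 0.986). Controls at 0 h held 3424, 3617 and 3335 CPM. Controls at 4 and 12 h stood 0.17 ± 0.10 and 0.20 ± 0.10 from them, and these differences did not pass (edgeR adjusted p = 0.550 and 0.222).

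**Figure D2:**
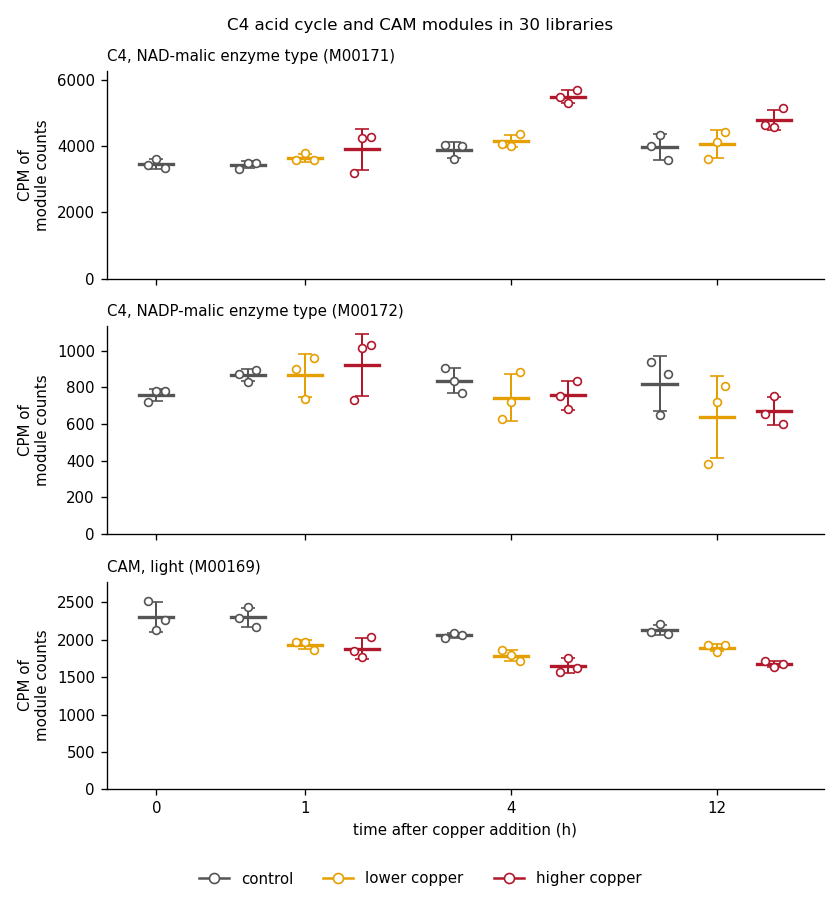
CPM of module counts (linear axes from 0) against time after copper addition for the C4 cycle modules of the NAD-malic enzyme and NADP-malic enzyme types and for the light phase of CAM; open circles are single libraries, thick bars are means and whiskers are the SD over 3 libraries. The NAD-malic enzyme type averaged 5480 CPM at higher copper at 4 h, against 3881 CPM in the 4 h controls, while the CAM module averaged 1652 and 2058 CPM in the same groups.

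For higher against lower copper at 4 h, photorespiration and the NAD-malic enzyme module had the smallest p of the 236 modules. These were the only modules that edgeR called in that comparison (0.847%), and both were higher. For the NAD-malic enzyme module the difference was 0.40 ± 0.10 (edgeR adjusted p = 0.0405), beside 0.10 ± 0.10 at 1 h and 0.24 ± 0.10 at 12 h, which did not pass (edgeR adjusted p = 0.905 and 0.202). No library of the 4 h groups overlapped for either module. Both calls rested on a p just under the threshold. Neither passed when the doubted pair of controls was left out (0.43 for each module, edgeR adjusted p = 0.0718) or when their labels were exchanged (edgeR adjusted p = 0.132 for photorespiration and 0.0834 for the NAD-malic enzyme module). They were also lost with library totals alone (0.36 and 0.35, edgeR adjusted p = 0.0644) and when only the groups compared were fitted (0.41 and 0.40, edgeR adjusted p = 0.124). Of the 30 libraries, 9 could be left out singly with both calls kept. These were replicate 2 of the controls at 4 and at 12 h, replicate 3 of lower copper at 4 h, replicates 1 and 3 of lower copper at 12 h, all 3 of higher copper at 1 h, and replicate 3 of higher copper at 12 h. Leaving out any of the other 21 ended both calls, with edgeR adjusted p up to 0.368. DESeq2 called 11 modules in this comparison, these among them.

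**Figure D3:**
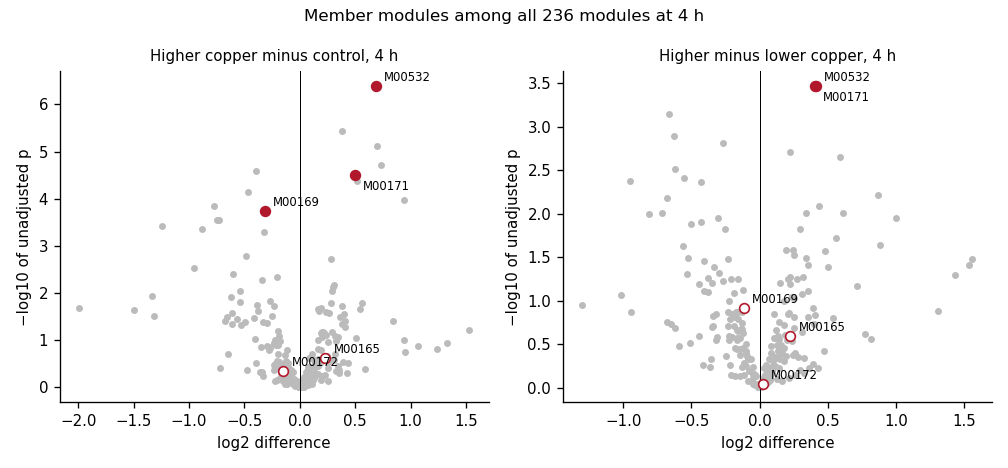
Unadjusted p on a −log10 axis against the log2 difference for each of the 236 modules at 4 h, higher copper minus control on the left and higher minus lower copper on the right; grey points are other modules, and red points are the 5 members, filled where the adjusted p was under 0.05. Photorespiration has the smallest p on the left with a difference of 0.68, and on the right its point and that of M00171 coincide at differences of 0.41 and 0.40.

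The light phase of CAM, which holds malic enzyme and the dikinase that makes phosphoenolpyruvate from pyruvate, was the member that fell. At 4 h its libraries held 1567, 1762 and 1627 CPM at higher copper, against 2021, 2091 and 2061 CPM in controls. The groups lay well apart, and the module fell by 0.32 ± 0.07 (edgeR adjusted p = 0.00385). At 12 h it held 1719, 1642 and 1675 CPM at higher copper and 2104, 2207 and 2075 CPM in controls. It fell by 0.34 ± 0.07, again with no overlap and with little spread (edgeR adjusted p = 0.00337). At 1 h the values were 1848, 1763 and 2036 CPM at higher copper and 2289.5, 2432 and 2175 CPM in controls, and the module fell by 0.29 ± 0.07 (edgeR adjusted p = 0.0254). Both later calls held without any single library. The 1 h call was lost without replicates 1 or 2 of control 1 h or replicates 1 or 2 of higher copper 1 h (edgeR adjusted p = 0.0670, 0.125, 0.0570 and 0.109). It was also lost with the doubted labels exchanged (-0.26, edgeR adjusted p = 0.110) and when only the groups compared were fitted (-0.32, edgeR adjusted p = 0.281).

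At lower copper the CAM module lay below all controls of the same time at 1, 4 and 12 h and was not called at any of them by edgeR. It held 1970.0, 1973 and 1866 CPM at 1 h, 1860.4, 1793 and 1712 CPM at 4 h, and 1925, 1835 and 1927 CPM at 12 h. The differences were -0.25 ± 0.07, -0.20 ± 0.07 and -0.17 ± 0.07 (edgeR adjusted p = 0.289, 0.313 and 0.467, with unadjusted p = 0.00203, 0.00929 and 0.0278). At 1 h this was the smallest unadjusted p of the 236 modules, and DESeq2 called the module there (-0.26, DESeq2 adjusted p = 0.0267). Higher against lower copper gave -0.04 ± 0.07, -0.11 ± 0.07 and -0.18 ± 0.07 at 1, 4 and 12 h, none of them called (edgeR adjusted p = 0.911, 0.411 and 0.202). Controls at 0 h held 2523, 2134.5 and 2261 CPM, and the later controls were not called against them. The 4 h controls all lay below the 0 h controls, at -0.16 ± 0.07 (edgeR adjusted p = 0.238).

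The C4 cycle of the NADP-malic enzyme type, which moves carbon as malate, had the fewest counts of the members and was not called in any comparison. Its libraries ran from 382 CPM in lower copper 12 h replicate 1 to 1029 CPM in higher copper 1 h replicate 3. The group means were 923 ± 168.4, 755 ± 77.2 and 670.0 ± 76.3 CPM at higher copper and 864.9 ± 32.6, 837 ± 68.3 and 820.2 ± 151 CPM in controls at 1, 4 and 12 h. The differences were 0.09 ± 0.20, -0.15 ± 0.20 and -0.29 ± 0.20 (edgeR adjusted p = 0.886, 0.741 and 0.306), and the interval at 12 h ran from -0.70 to 0.11. Lower copper averaged 864.6 ± 117, 743 ± 129.6 and 636 ± 225 CPM, with the largest difference from controls at 12 h, -0.37 ± 0.20 (edgeR adjusted p = 0.871). Each of these pairs of groups overlapped. The SD reached 35.3% of the mean in lower copper at 12 h, where replicate 1 was low for this module as it was for the Calvin cycle.

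Counted together, 1 of the 5 members rose, 1 fell and 3 did not pass at 1 h of higher copper, where 5.08% of all modules were called, 2.97% higher and 2.12% lower. At 4 h 2 rose, 1 fell and 2 did not pass, beside 8.47% of all modules, 3.39% higher and 5.08% lower. At 12 h 1 rose, 1 fell and 3 did not pass, beside 16.5%, with 8.9% higher and 7.63% lower. An unadjusted p under 0.05 was held by 2, 3 and 4 of the 5 at 1, 4 and 12 h, and by 16.1%, 25.8% and 31.4% of all modules. The median difference over the 5 was 0.09, 0.23 and 0.27 at the 3 times, against 0.01, 0.02 and -0.00 over all modules. At lower copper edgeR called 0 of the 5 at 1, 4 and 12 h, beside 0%, 0% and 0.424% of all modules. At each of these times 2 of the 5, photorespiration and the CAM module, had an unadjusted p under 0.05, against 8.47%, 6.78% and 6.78% of all modules. DESeq2 called 1, 0 and 0 of the 5 at lower copper, beside 1, 0 and 4 of all 236 modules. Higher against lower copper gave 0, 2 and 0 calls by edgeR, beside 0%, 0.847% and 0.847%. At an unadjusted p under 0.05 these counts were 1, 2 and 3, beside 3.81%, 17.8% and 17.8% of all modules. DESeq2 called 0, 2 and 0 of the 5 for higher against lower copper, beside 0, 11 and 14 of all 236 modules. In the controls 0, 1 and 1 of the 5 differed from 0 h by edgeR at 1, 4 and 12 h, beside 0.424%, 5.08% and 8.47%. Both calls were rises of photorespiration, and over all modules 2.97% were higher and 2.12% lower at 4 h, and 4.24% higher and 4.24% lower at 12 h. An unadjusted p under 0.05 was held by 0, 2 and 1 of the 5, beside 8.47%, 14.4% and 22.9% of all modules at 1, 4 and 12 h. DESeq2 called 0, 1 and 1 of the 5 in the controls, beside 5, 17 and 29 of all 236 modules. The comparisons with the same controls share those libraries and are not independent of one another.

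**Figure D4:**
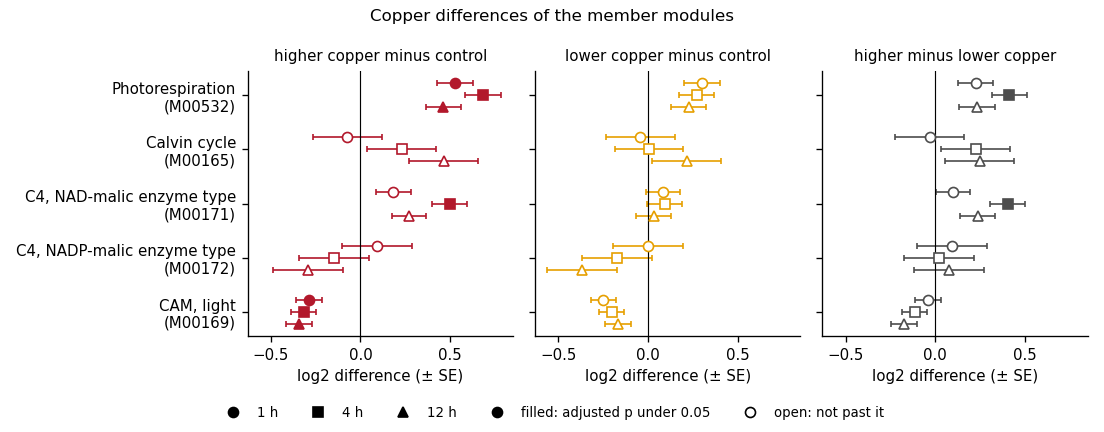
Log2 differences of the 5 modules with their standard errors, for higher copper minus control, lower copper minus control and higher minus lower copper; circles, squares and triangles are 1, 4 and 12 h, and filled symbols have an edgeR adjusted p under 0.05. Photorespiration lies to the right of 0 and the CAM module to the left of 0 in the first 2 panels at each time, while the Calvin cycle and the NADP-malic enzyme type have the widest errors and no filled symbol.

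Whether a copper effect changed between consecutive times was tested as an interaction, and edgeR called 0 of the 5 members and 0% of all modules in each of the 4 contrasts. DESeq2 called 0 of the 5 in each, and over all 236 modules it called 1, in the change of the higher copper effect from 4 to 12 h. Over all 236 modules, 1.69% had an unadjusted p under 0.05 for the change of the higher copper effect from 1 to 4 h, and 6.36% from 4 to 12 h. For lower copper these shares were 2.54% and 1.69%. The NAD-malic enzyme module was the only member with an unadjusted p under 0.05 in any of the 4 contrasts. Its effect of higher copper at 4 h exceeded that at 1 h by 0.31 ± 0.14 (unadjusted p = 0.0309, edgeR adjusted p = 0.995). For photorespiration the effect of higher copper changed by 0.16 ± 0.14 from 1 to 4 h and by -0.22 ± 0.14 from 4 to 12 h (edgeR adjusted p = 0.995 and 0.876). For the CAM module the changes were -0.03 ± 0.10 and -0.03 ± 0.10 (edgeR adjusted p = 0.995 and 0.979). No change of a copper effect with time passed the test for these modules.

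Across the 30 libraries the NAD-malic enzyme module rose and fell with photorespiration, and the CAM module ran against it. On log2 CPM, Pearson's r with photorespiration was 0.89 for the NAD-malic enzyme module (Spearman's rho 0.91) and -0.84 for the CAM module (rho -0.83). It was 0.66 for the Calvin cycle (rho 0.74) and -0.30 for the NADP-malic enzyme type (rho -0.35). These describe 30 points that include the group differences above and share library totals and scaling. Taken as deviations from the group means, r was 0.68 for the NAD-malic enzyme module and -0.33 for the CAM module. Among such deviations, the Calvin cycle and the NADP-malic enzyme type had the highest r of the 10 pairs of members, 0.73, against 0.06 over the libraries as they stand. In every library the NADP-malic enzyme module had fewer counts than the CAM module, at 0.198 to 0.574 of it.

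**Figure D5:**
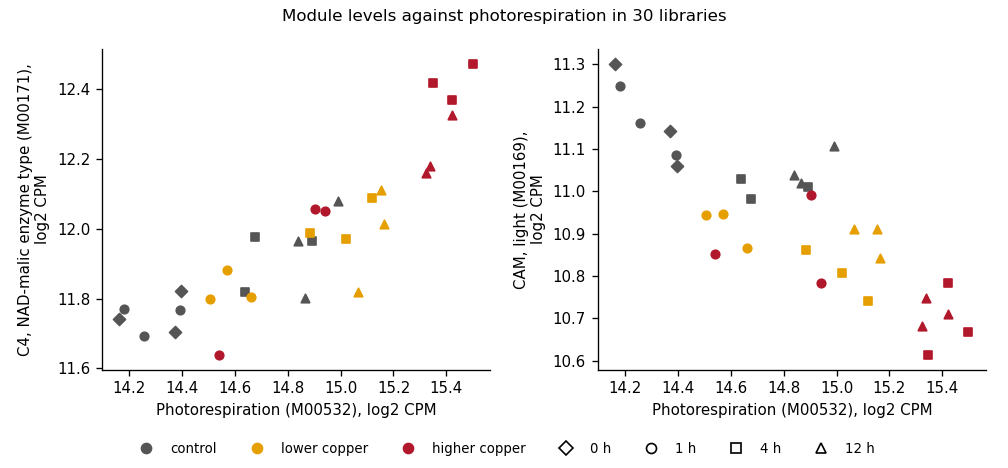
Log2 CPM of the NAD-malic enzyme module (left) and of the CAM module (right) against log2 CPM of photorespiration; each point is 1 of 30 libraries, coloured by copper addition and shaped by time. Libraries at higher copper for 4 and 12 h lie at the upper right on the left panel and at the lower right on the right panel, and r over all points is 0.89 and -0.84.

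Other modules of carbon and light metabolism gave a background for these changes. Of 18 listed, 11 were in the table, among them both photosystems, cytochrome b6f, the chloroplast ATP synthase, glycolysis, the pentose phosphate pathway and the TCA cycle. At higher copper 0 rose, 1 fell and 10 did not pass at 1 h, beside 5.08% of all modules called, and the same counts stood at 4 h, beside 8.47%. At 12 h edgeR called 0 of the 11, beside 16.5%. An unadjusted p under 0.05 was held by 4, 4 and 3 of the 11 at 1, 4 and 12 h, beside 16.1%, 25.8% and 31.4% of all modules. The median differences were -0.04, -0.02 and 0.04, against 0.01, 0.02 and -0.00 over all modules. The module that fell at 1 h was the glyoxylate cycle (M00012), which builds acids from acetyl-CoA. It fell by 2.24 ± 0.59 (edgeR adjusted p = 0.0298). That call was lost with gene table scaling, with the doubted labels exchanged, when only the groups compared were fitted, and without control 1 h replicates 1 or 2 or any replicate of higher copper 1 h, with edgeR adjusted p up to 0.123. At 4 h it was serine synthesis from glycerate phosphate (M00020), which fell by 0.39 ± 0.08 (edgeR adjusted p = 0.00119) and was called under all 40 alternatives. This is the route to serine that does not pass through photorespiration. Without added copper it also fell in controls at 4 and at 12 h against 0 h, called under 39 and 20 of the 40 alternatives. Its 12 h call was lost with the doubted labels exchanged and with both left out. In these controls 2 of the 11 rose at 4 h, the chloroplast ATP synthase (M00157) and photosystem I (M00163), and 1 fell, beside 5.08% of all modules called. These rises were called under only 20 and 22 of the 40 alternatives. The M00157 call was lost with the doubted labels exchanged and with both left out, and the M00163 call with both left out. At 12 h 1 rose, photosystem I, and 1 fell, serine synthesis, beside 8.47%. The 12 h rise of photosystem I was called under 33 of the 40 alternatives and was lost with both doubted controls left out. At lower copper edgeR called 0 of the 11 at each time, beside 0%, 0% and 0.424%. An unadjusted p under 0.05 was held by 2, 0 and 1 of them, beside 8.47%, 6.78% and 6.78%.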

How the data were processed

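RNA was extracted with TRIzol, made into stranded mRNA libraries (TruSeq) and sequenced on an Illumina HiSeq after a MiSeq titration run of 50-nt single reads, per the labels' protocols. The authors deposited 1 table of counts per KEGG module, obtained per the series' design text by a homology search against KEGG, and 1 of counts per gene. DESeq2 is named in the submitters' processing notes with no step or version. The sources used here give no aligner, counter, genome build or rule for reads that match several modules. The authors' comparison tables were not used here.

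Deposited module counts of all 30 libraries were fitted in edgeR 4.0.16 (R 4.3.3) with TMM scaling, 10 group means, 20 residual degrees of freedom and no filter. The quasi-likelihood test gave 16 comparisons, each adjusted after Benjamini-Hochberg over 236 modules. On simulated counts of higher copper at 4 h with these 236 modules, 18 of 20 modules changed 2-fold and 4 of 20 changed 1.5-fold were recovered, and 1 of 196 unchanged modules was called. Alternatives were other scalings, DESeq2 1.42.0, edgeR's filterByExpr, fewer groups in the fit, a replicate block, the doubted labels exchanged or left out, and each library left out. Values per library are given for modules called in any comparison and for M00165, and every member found is named. The members, lists and doubt about 2 labels were chosen with earlier results of these data known. The unnamed line of the gene table held 0.000377% of its counts and was left out. A test of the pathways' genes was not run: 7626 of 7627 gene IDs matched RefSeq locus tags, but only 2 carry a symbol of their own.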

Additional observations from a re-analysis of the deposited data

How the results depend on the processing

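The log2 differences of the 5 members kept their sign wherever called. Under alternatives other than single omissions, 765 values stayed on their side of the threshold, 30 lost a call and 5 gained one. The number of members called at higher copper was 2, 3 and 2 at 1, 4 and 12 h. It moved to 0 at 1, 4 and 12 h with scaling by the gene table, to 0 at 1 h when only the groups compared were fitted or the doubted labels were exchanged, and to 1 at 1 h with gene table scaling and both doubted controls left out. Over all 236 modules the calls at 1 h were then 0, 0, 1 and 3 in that order, in place of 12. At 12 h 3 members were called with DESeq2 size factors, DESeq2 as the test, only the groups compared or the replicate block. Over all modules these settings gave 42, 46, 36 and 46 calls at 12 h, in place of 39. Higher against lower copper at 4 h gave 0 in place of 2 with library totals alone, gene table scaling, only the groups compared, exchanged labels, both doubted controls left out, or gene table scaling with both left out. Controls at 4 h against 0 h gave 0 in place of 1 under these settings other than gene table scaling by itself, and controls at 12 h gave 0 in place of 1 with gene table scaling. Lower copper at 1 h gave 1 in place of 0 with DESeq2 as the test. With single libraries left out the counts ran from 0 to 2, 3 to 3 and 2 to 4 at higher copper for 1, 4 and 12 h, from 0 to 2 for higher against lower copper at 4 h, and from 0 to 1 and 1 to 1 for controls at 4 and 12 h. The causes of these changes were not tested.

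The labels do not say what a replicate number marks, and the libraries were not treated as paired. Over 135 same-numbered pairs from different groups the correlation of deviations ran from -0.61 to 0.78, with a median of 0.09, and 64 exceeded 0.1. By mean correlation, 17 of 30 libraries stood closer to libraries of their own number than to those of any other number. No value for differently numbered pairs is set beside these. They are at most a hint of pairing, from the data and not from the design. With the replicate number as a block, the NAD-malic enzyme module passed at 12 h of higher copper (0.27, edgeR adjusted p = 0.0455), and no other call of a member changed. Over all modules the block raised the calls to 12 in place of 2 for higher against lower copper at 12 h, to 4 in place of 2 at 4 h, to 8 in place of 1 for controls at 1 h against 0 h, and to 1 in place of 0 for the change of the higher copper effect between 4 and 12 h. Library totals alone moved the split of calls over all modules, with 44.4% higher in place of 58.3% at 1 h of higher copper, 37.8% in place of 53.8% at 12 h, 0% in place of 58.3% in controls at 4 h (40.0% with DESeq2 size factors), and 24.1% in place of 50.0% in controls at 12 h. DESeq2 called 29 modules at 4 h of higher copper, where edgeR called 20. The filter filterByExpr kept all 236 modules and changed nothing. Gene table scaling with both doubted controls left out was chosen after seeing the data. The planned DESeq2 test of the pathways' genes was not run. Counting depth is high for every member, and 3 libraries a group and the spread of the Calvin cycle and NADP-malic enzyme modules limit what could be detected.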

Other observations

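Some modules outside carbon fixation followed photorespiration closely. Among 178 other modules with a mean of at least 100 CPM, the serine pathway of formaldehyde assimilation (M00346), a bacterial route that shares glycine and serine steps with photorespiration, had Pearson's r of 0.98 with it over the 30 libraries on log2 CPM, and Spearman's rho of 0.97. Isoleucine synthesis from threonine (M00570) followed with r of 0.93, and M00086, in which fatty acids are activated to acyl-CoA, with r of 0.83. Taken as deviations from group means, r was 0.74 and 0.70 for the first pair and -0.08 for acyl-CoA synthesis. The points share library totals, scaling and the group differences, and modules may share reads.

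The Calvin cycle had as its nearest modules the semi-phosphorylative Entner-Doudoroff pathway (M00308), a prokaryotic route of gluconate breakdown, with r of 0.91 (rho 0.85), coenzyme M synthesis (M00358) with r of 0.89 (rho 0.86), and a module named for quinolone resistance (M00729) with r of 0.84 (rho 0.75). Deviations from group means gave r of 0.95, 0.95 and 0.83. These names describe bacterial or archaeal pathways, and the reads behind them were not traced here.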
